A study of Sus scrofa with 18 samples.

Results

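The cytosolic ribosomal protein genes were followed in the endometrium of 2 pig breeds through early and mid-gestation. A member was any probe set whose single gene symbol was RPL or RPS with a number, or RPSA, RPLP0, RPLP1 or RPLP2, with the RPS6K kinases left out. This gave 96 probe sets for 64 genes, among 24123 probe sets with 6765 single symbols on the array. Of these, 81 probe sets for 61 genes had an intensity above 100 on at least 6 of the 18 arrays and were tested, and 15 did not pass. Among the 15, 14 were above 100 on no array, and RPL26, RPL30 and RPS15A were measured by such dim probe sets alone. The 61 genes comprised 23 genes of the 40S subunit, 29 of the 60S subunit, the 3 stalk genes RPLP0, RPLP1 and RPLP2, and 5 paralogs (RPL22L1, RPL26L1, RPL36AL, RPL7L1 and RPS27L). The last, RPS19BP1, matched by its letters and encodes a protein that binds RPS19, not a subunit.

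Ribosomal proteins and ribosomal RNA build the small 40S subunit, which reads the mRNA, and the large 60S subunit, which joins the amino acids. The stalk proteins of the large subunit recruit the elongation factors. The mRNAs of nearly all these genes begin with a run of pyrimidines, and their translation is known to be governed together by nutrient and growth signals through mTOR. During this part of pregnancy the porcine endometrium secretes the fluid that feeds the conceptus while the trophoblast attaches to the uterine epithelium.

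Endometrium came from pregnant Meishan and Yorkshire gilts on gestational days (GD) 15, 26 and 50, all mated to boars of their own breed, and no group was treated or non-pregnant. The Affymetrix porcine array measured 18 RNA pools, 3 in every combination of breed and day (6 groups). Each pool joined 1 attachment site of each of the same 2 gilts, so the 3 arrays of a group are sites and not further animals, and p-values measure the spread between site pools alone. With 3 arrays a group, this number limits the precision of every value below.

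Values are log2 intensities as deposited unless they are called median centred, which means that each array's median over the 9320 tested probe sets was subtracted. Both are given because this median was 8.31 to 8.40 on 12 arrays but 7.78 to 8.13 on the 6 Yorkshire GD26 and GD50 arrays. On these same 6 arrays the spiked hybridization controls averaged 11.45 to 13.50, against 9.68 to 11.14 on the other 12. Between 7131 and 8036 probe sets were above 100 on these 6 arrays, and 8373 to 8743 on the other 12. The log2 difference between the 3' and 5' probe sets of GAPDH, a sign of RNA and labelling quality, was -0.03 to 0.52 there and 0.74 to 1.56 elsewhere. In Yorkshire, array state and day can therefore not be told apart between GD15 and the later days. On GD26 and GD50 array state and breed cannot be told apart either. Within a group, the brightest probe sets of the 61 genes correlated at 0.985 to 0.998 between arrays. Rose, fell, higher and lower are used where the limma test had a Benjamini-Hochberg adjusted p under 0.05 over the 9320 probe sets.

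Marker genes of cell types changed between the days as well. Of 8 trophoblast and placenta genes on the array, 6 were under 100 on all GD15 arrays of each breed, and the summed intensity of the 8 was 506 to 584 in Meishan and 450 to 491 in Yorkshire. By GD26 the sum reached 27906 to 52081 in Meishan and 53019 to 63498 in Yorkshire, and by GD50 61873 to 72152 and 37068 to 55444. Of 7 epithelial genes 5 fell in Yorkshire by GD26 as deposited (KRT8, KRT18, EPCAM, MUC1 and ESRP1) and 1 rose (KRT19), and 3 fell and 2 rose in Meishan. Of all probe sets 44.9% fell and 20.3% rose in Yorkshire in this step as deposited, and 27.1% and 23.8% in Meishan. The summed intensity of the 7 epithelial genes went from 29940-32272 on GD15 to 23564-25482 on GD26 in Yorkshire and from 29893-32467 to 28093-30778 in Meishan. Fewer cells of a type and less RNA per cell cannot be told apart in such bulk tissue, and the part of cell make-up in the results below was not tested.

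Taking the brightest probe set of each gene, the mean over the 61 ribosomal protein genes was lower on each later day in Meishan. It was 13.84, 13.87 and 13.77 on the 3 GD15 arrays, 13.58, 13.57 and 13.62 on GD26 and 13.39, 13.35 and 13.29 on GD50. The arrays of the 3 days did not overlap. After median centring the means were 13.58 to 13.74 on GD15, 13.42 to 13.51 on GD26 and 13.18 to 13.27 on GD50, again apart. Both steps were below 0 for 47 of the 61 genes as deposited and 43 centred. How many of all probe sets were below 0 in both steps was not counted. The median change of the 61 genes from GD15 to GD50 was -0.45 as deposited and -0.40 centred. The second step depended on the scaling. As deposited its median over the 61 genes was -0.24, with 7 falls. It was -0.13 with 4 falls after quantile normalization and -0.08 with 2 after cyclic loess. Of all 9320 probe sets 951, 915 and 854 fell in this step on these scales. In Yorkshire the deposited mean went from 13.84-13.87 on GD15 to 13.34-13.40 on GD26 and 13.18-13.38 on GD50. How much of that fall was left depended on the scaling. Centred, the 3 days read 13.70, 13.48-13.69 and 13.37-13.81, and the median change to GD50 was -0.13 in place of -0.59. By GD26 the Yorkshire median over the 61 genes was -0.49 as deposited and -0.09 centred. It was -0.43 after quantile normalization and -0.35 after cyclic loess.

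**Figure D1:**
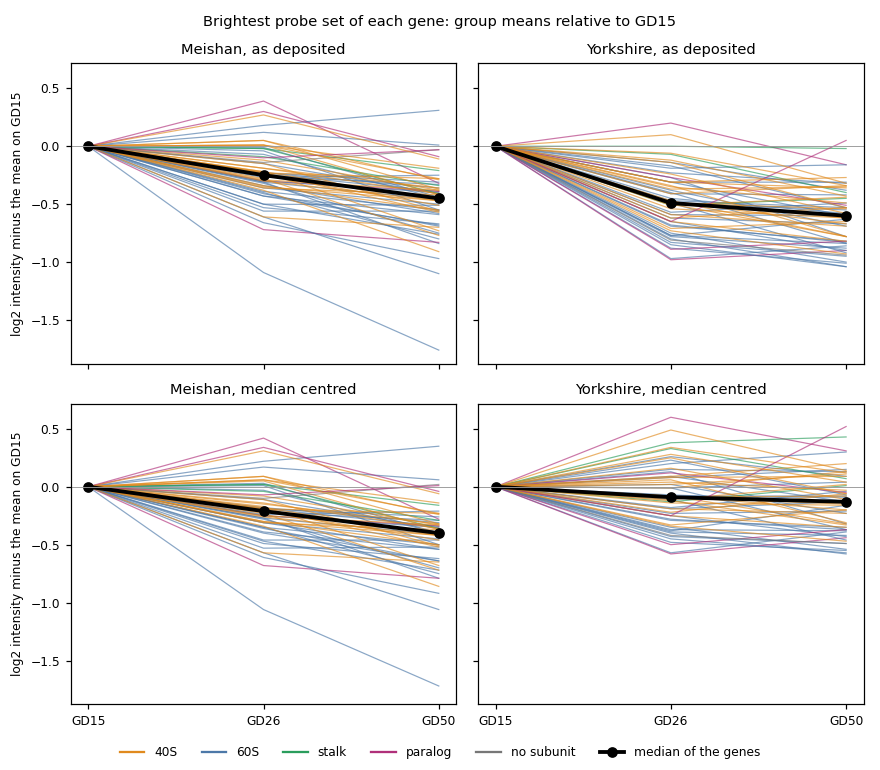
Group mean log2 intensity of the brightest probe set of each of the 61 genes minus its GD15 mean (y axis) on the 3 gestational days (x axis), by breed, as deposited (top) and median centred (bottom). Thin lines are genes coloured by subunit and the black line is their median, which ends at -0.45 in Meishan and -0.59 in Yorkshire as deposited, and at -0.40 and -0.13 centred.

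From GD15 to GD26 in Meishan, 21 of the 81 member probe sets fell and 1 rose, with a median log2 change of -0.22. Of all 9320 probe sets 27.1% fell and 23.8% rose, with a median of -0.06. The share of members that fell was thus close to that of all probe sets, and the difference lay in the near absence of rises. Centred, 16 members fell and 1 rose, against 25.5% and 25.4% of all. The 60S genes made up most of the falls: 14 of 29 genes fell by their brightest probe set, with a median of -0.32, against 4 of 23 40S genes with a median of -0.22. None of the 3 stalk genes passed the test. Without Meishan GD26 replicate 2, 11 members fell in place of 21, and without Meishan GD15 replicate 1, 10 members rose in place of 1, of which 8 are the dim probe sets described further down.

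The lead member was RPL31, a protein at the exit of the peptide tunnel of the 60S subunit. Its probe set Ssc.3747.1.A1_at read 14.55, 14.52 and 14.89 on Meishan GD15, 13.93, 13.28 and 13.46 on GD26 and 13.26, 12.76 and 12.66 on GD50. Every GD15 array was above every GD26 array, which in turn were above every GD50 array. The change by GD26 was -1.10 ± 0.22 (SE; limma adjusted p = 0.00222), or -1.06 centred, and no other brightest probe set changed by as much as 1 log2 unit in this step. A second probe set, Ssc.3747.1.A1_x_at, whose suffix marks probes shared with other sequences, fell by 0.86 ± 0.20 by GD26 and by a further 0.71 ± 0.20 by GD50 (limma adjusted p = 0.006 and 0.0382). For the brighter one the second step was -0.66 ± 0.22 and did not pass (adjusted p = 0.062).

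RPL36AL, the autosomal paralog of RPL36A, read 13.56, 13.56 and 13.90 on Meishan GD15 and 13.06, 12.85 and 12.95 on GD26. No array of GD26 reached GD15, and the change was -0.72 ± 0.14 (limma adjusted p = 0.00226). It fell in Yorkshire too, by 0.89 ± 0.16 as deposited and by 0.49 ± 0.17 centred (adjusted p = 0.00106 and 0.0259). RPL14 (-0.66 ± 0.12), RPL9 (-0.61 ± 0.12), RPL38 (-0.56 ± 0.12) and RPL23 (-0.53 ± 0.13), all of the 60S subunit, followed in Meishan.

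Among 40S members, RPS4X, the X-linked form of the protein, had the largest change of a brightest probe set. On Meishan GD15 it read 13.49, 13.80 and 13.78, and on GD26 13.36, 12.88 and 13.00, a change of -0.61 ± 0.17 (limma adjusted p = 0.0122). The GD26 arrays lay under the GD15 arrays. A dim second probe set of RPS25 (Ssc.26944.1.S1_at), a 40S protein used by some viral and cellular mRNAs for initiation, read up to 7.14 on Meishan GD15, 6.17, 6.13 and 5.66 on GD26 and 7.12, 6.71 and 6.84 on GD50. All its Meishan GD26 values were under an intensity of 100 (log2 of 6.64). GD15 was thus at least 1.35-fold and GD50 at least 1.19-fold above GD26. This probe set was above 100 on 8 arrays, none of them of GD26 in either breed. It passed the filter only through groups where it was high, so its differences are a description without a test. The counts of members include it. The brightest RPS25 probe set did not pass in either step. One member rose in Meishan by GD26, a second probe set of RPS27 (Ssc.4805.1.S1_at), from 7.94-8.34 to 8.48-8.85, a change of 0.54 ± 0.16 (adjusted p = 0.0164).

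From GD26 to GD50 in Meishan, 9 members fell and 1 rose on either scale, with a median of -0.19. The 1 counted as risen was the dim RPS25 probe set, whose difference is a description without a test. Of all probe sets 10.2% fell and 8.20% rose as deposited, and 10.0% and 8.25% centred. The count of falls was therefore close to that of the array as a whole. It rests on few arrays: without Meishan GD26 replicate 3 a single member fell, and without Meishan GD15 replicate 3, which enters only through the shared spread, 18 did.

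Besides RPL31, the falls of the second step were led by RPL22L1, RPS18 and RPL15. RPL22L1, the paralog that is known to take the place of RPL22 in some cells, read 12.98, 12.66 and 12.98 on Meishan GD26 and 12.32, 12.25 and 11.93 on GD50. The days were apart, by -0.71 ± 0.16 (limma adjusted p = 0.014). Its GD15 arrays, at 12.44, 12.38 and 12.66, were above those of GD50 and at or under those of GD26, and the step from GD15 to GD26 was 0.38 ± 0.16 and did not pass (adjusted p = 0.0707). RPS18 changed by -0.53 ± 0.14 by its brightest probe set and by -0.66 ± 0.14 by Ssc.11132.1.S1_a_at. RPL15, of the 60S subunit, read 13.33, 13.37 and 13.46 on GD26 and 12.88, 12.90 and 12.80 on GD50, a change of -0.53 ± 0.12 (adjusted p = 0.0149). RPL12 (-0.51), RPS9 (-0.51), RPL9 (-0.49) and RPS13 (-0.49) completed the 7 genes that fell by their brightest probe set.

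From GD15 to GD26 in Yorkshire, 44 members fell and 9 rose as deposited, with a median of -0.48. Of all probe sets 44.9% fell and 20.3% rose, with a median of -0.47. Centred, 6 members fell and 11 rose, against 30.7% and 29.0%, and the median was -0.08, the same as over all probe sets. The number of calls thus depended on whether the shift of the arrays was taken out. Below 0 were 69 of the 81 changes as deposited and 49 centred, against 6170 and 4939 of all 9320. By brightest probe sets, 38 of 61 genes fell as deposited and 4 centred (RPL26L1, RPL23, RPL36AL and RPL19), while RPS6 and RPL22L1 rose centred. Without Yorkshire GD15 replicate 2, 28 members fell as deposited. With quantile or cyclic loess normalization between arrays, 35 and 27 of the 61 brightest probe sets fell in this step and none rose. Of all 9320 probe sets 3175 fell and 2587 rose with quantile normalization, and 2616 and 2857 with cyclic loess.

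RPL26L1, the paralog of RPL26, read 10.82, 10.90 and 11.01 on Yorkshire GD15 and 10.08, 9.82 and 9.90 on GD26. All GD26 arrays were lower, by 0.98 ± 0.15 as deposited and 0.58 ± 0.16 centred (limma adjusted p = 3.98e-04 and 0.0102). RPL23, a 60S protein that can also bind the p53 regulator MDM2, read 14.18, 14.18 and 14.20 on GD15 and 13.38, 13.14 and 13.14 on GD26. It fell by 0.96 ± 0.16 as deposited and by 0.57 ± 0.18 centred (adjusted p = 6.89e-04 and 0.0206). RPL19 fell by 0.85 ± 0.14 and by 0.45 ± 0.17 centred. RPS6, the substrate of the S6 kinases, read 13.71 to 13.85 on GD15 and 13.81 to 13.93 on GD26 as deposited, where the groups overlapped and the change was 0.10 ± 0.14. Only centring made this a rise, of 0.49 ± 0.18 (adjusted p = 0.0337). Likewise RPL22L1 changed by 0.21 ± 0.19 as deposited and rose by 0.60 ± 0.21 centred.

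Of the genes whose brightest probe set fell by GD26, 17 did so in both breeds as deposited, which is 17 of 19 in Meishan and 17 of 38 in Yorkshire. They were RPL3, RPL9, RPL13A, RPL14, RPL19, RPL22, RPL23, RPL24, RPL31, RPL32, RPL34, RPL35, RPL38, RPL36AL, RPS3A, RPS18 and RPS28. After centring 3 were shared, RPL19, RPL23 and RPL36AL, of 14 in Meishan and 4 in Yorkshire. Of all probe sets 27.1% fell in Meishan and 44.9% in Yorkshire as deposited, and 25.5% and 30.7% centred. How many of all probe sets fell in both breeds was not counted, so the overlap has no background beside it.

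**Figure D2:**
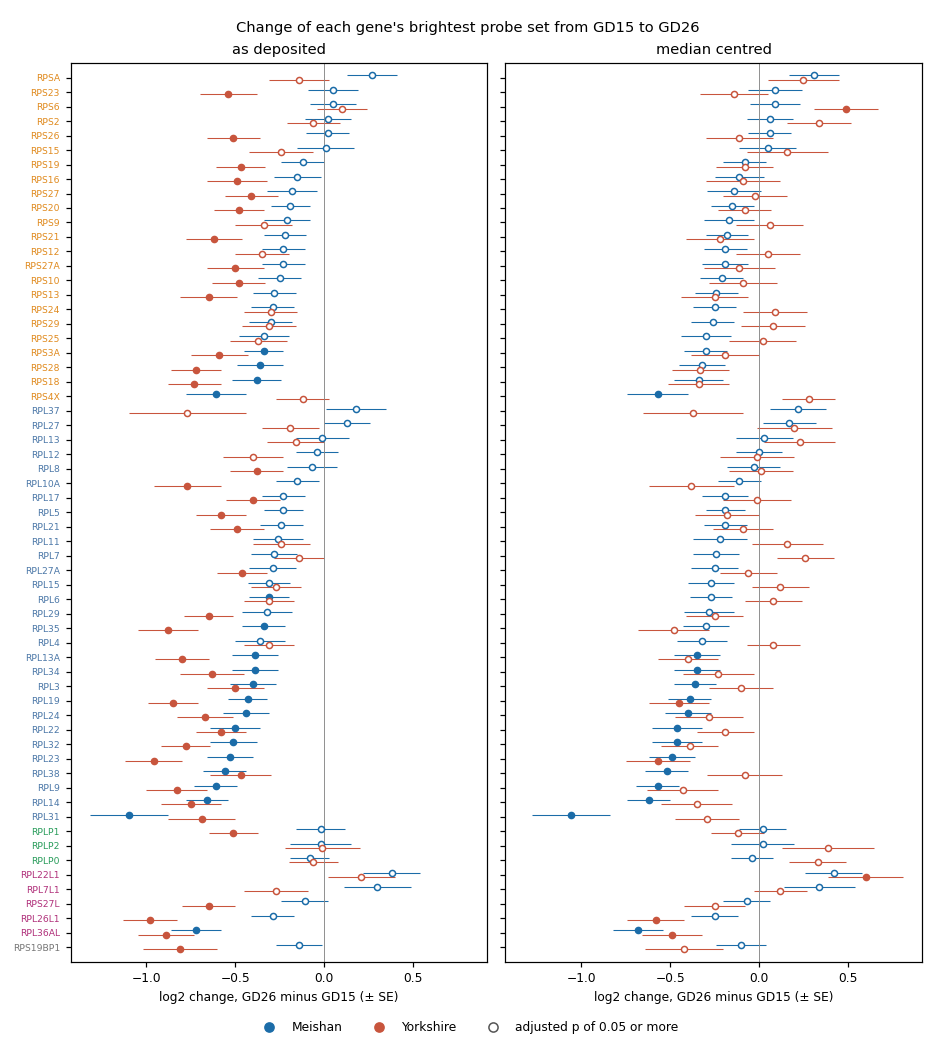
Log2 change from GD15 to GD26 (x axis, with SE) of the brightest probe set of each of the 61 genes (rows, names coloured by subunit as 40S, 60S, stalk, paralog or none), as deposited (left) and median centred (right). Filled points had a limma adjusted p under 0.05: 19 Meishan and 38 Yorkshire genes as deposited, all to the left, and 14 and 6 centred, of which RPS6 and RPL22L1 lie to the right.

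From GD26 to GD50 in Yorkshire, 2 members fell and 1 rose as deposited, and none fell and 1 rose centred. Of all probe sets 7.85% fell and 5.72% rose as deposited, and 8.02% and 7.48% centred. The 6 arrays compared here shared the low medians and bright controls. Without Yorkshire GD26 replicate 2 no member rose. The 2 falls became 0 when any single Yorkshire array other than GD50 replicate 2 was left out (3 without that one), and 0 with the replicate block. The member that rose was RPS27L, the paralog of RPS27 that is a known target of p53. It read 11.34, 11.13 and 11.22 on GD26 and 11.84, 12.06 and 11.90 on GD50, with no overlap, a change of 0.70 ± 0.15 (limma adjusted p = 0.0155) and 0.77 ± 0.17 centred. Its GD15 arrays were at 11.81, 11.88 and 11.95, so as deposited GD26 was a dip, with a fall of 0.65 ± 0.15. Centred, that first step was -0.25 ± 0.17 without passing (limma adjusted p = 0.223). The centred means of the 3 days were 11.72, 11.47 and 12.24, with GD50 above GD15, a difference that was not tested. In Meishan no array of RPS27L was under 11.65. RPL15 fell in this step in Yorkshire as it did in Meishan, by 0.51 ± 0.14 (adjusted p = 0.0409), and was -0.45 ± 0.16 centred without passing (adjusted p = 0.0855). The other fall was Ssc.11132.1.S1_a_at of RPS18, by 0.65 ± 0.19 (adjusted p = 0.0478; centred -0.58, adjusted p = 0.0711).

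**Figure D3:**
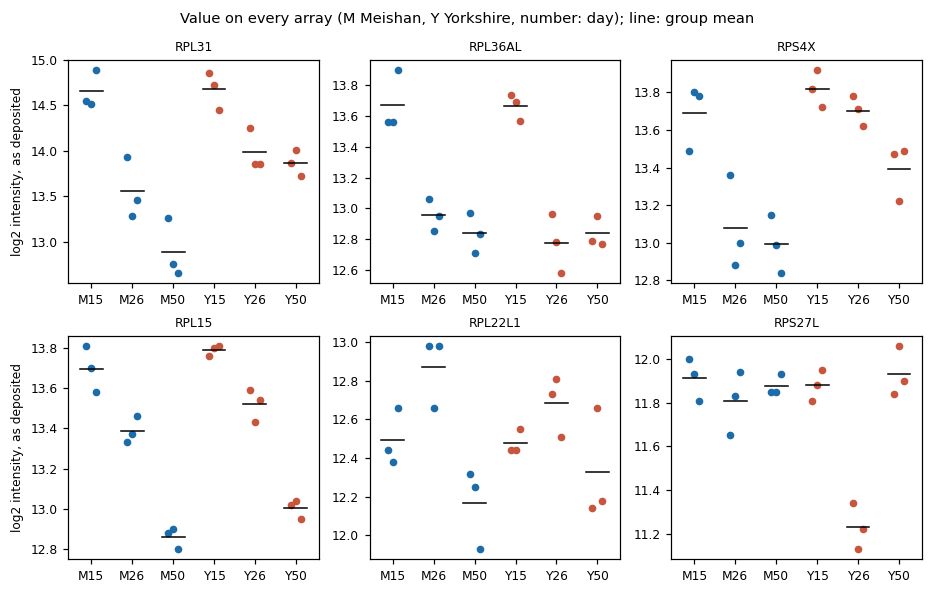
Log2 intensity as deposited (y axes, each cut to its own range) of the brightest probe set of 6 genes on every array, grouped by breed and day (x axis, M Meishan in blue, Y Yorkshire in red). Black lines are group means: RPL31 and RPL15 descend over the days, RPS4X is lower in Meishan than in Yorkshire on GD26 and GD50, and RPS27L dips on Yorkshire GD26 to 11.13-11.34.

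The difference between the breeds in these changes was tested in its own contrast. For the step from GD15 to GD26, 11 members had a lower change in Yorkshire and 3 a higher one as deposited, against 26.8% and 8.70% of all probe sets. Centred, no member was lower and 5 were higher, against 13.0% and 13.8%. The median was -0.24 as deposited and 0.12 centred, and with quantile or cyclic loess normalization it stayed below 0, at -0.14 in both. Among the 9 brightest probe sets past this test as deposited, RPL26L1 had the lowest difference, -0.68 ± 0.17 (limma adjusted p = 0.00736), and it was -0.33 ± 0.19 centred (adjusted p = 0.207). The only brightest probe set past this test after centring was RPS4X, at 0.84 ± 0.21 (adjusted p = 0.00732; as deposited 0.49 ± 0.22, adjusted p = 0.0872). For the step from GD26 to GD50 no member passed limma's test on either scale. Of all probe sets 2.05% were higher and 2.32% lower by this test as deposited, and 2.88% and 2.40% centred. An unadjusted limma p under 0.05 was reached by 3 members as deposited and 2 centred, and was not counted over all probe sets. Leaving out single arrays moved the 11 lower members to between 2 and 12, the fewest without Meishan GD26 replicate 3, and the 3 higher ones to between 1 (without Meishan GD15 replicate 1) and 6.

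Compared day by day, the breeds were alike on GD15, when 1 member was lower in Yorkshire and none higher on both scales. Of all probe sets 4.87% were lower and 4.92% higher as deposited, and 5.28% and 5.13% centred. On GD26, 27 members were lower and 10 higher as deposited, against 42.5% and 10.7%. Centred, 4 were lower and 19 higher, against 22.2% and 19.1%. By GD50, 18 were lower and 12 higher as deposited (45.6% and 10.9% of all), and centred 3 were lower and 32 higher (22.6% and 20.9%). The higher members include 8 dim probe sets described further down. Those of RPL6 and RPL13A passed the filter only through these Yorkshire groups, so their place among the higher ones is no test. Without the 8, 2 were higher on GD26 and 4 on GD50 as deposited, and 11 and 24 centred. The centred median of the members was 0.13 on GD26 and 0.32 on GD50, when the centred median of all probe sets was -0.07 and -0.05. On GD50 the centred difference was below 0 for 4 of the 61 brightest probe sets, and as deposited for 42. Of all 9320 probe sets it was below 0 for 4922 centred and for 6984 as deposited. With cyclic loess the members' median was -0.06 and -0.07 on these days, so a higher level of the group in Yorkshire depended on centring.

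RPL31 on GD50 and RPS4X on GD26 and GD50 were higher in Yorkshire on both scales. All Yorkshire arrays of these days and no Meishan array had the low medians and bright controls, so breed and array state cannot be told apart here. RPL31 read 13.87, 14.01 and 13.72 on Yorkshire GD50 against 13.26, 12.76 and 12.66 in Meishan, a difference of 0.97 ± 0.20 as deposited and 1.38 ± 0.20 centred (limma adjusted p = 9.78e-04 and 5.80e-05). On GD26 it was 0.43 ± 0.20 as deposited, which did not pass, and 0.79 ± 0.20 centred. RPS4X read 13.78, 13.71 and 13.62 on Yorkshire GD26 and 13.36, 12.88 and 13.00 in Meishan, without overlap. The difference was 0.62 ± 0.15 as deposited and 0.97 ± 0.15 centred on GD26 (adjusted p = 0.00331 and 8.57e-05), and 0.40 ± 0.15 and 0.82 ± 0.15 on GD50 (adjusted p = 0.0347 and 3.78e-04). On GD15 neither gene differed past the test, at 0.02 ± 0.20 and 0.13 ± 0.15.

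RPLP0 changed by -0.08 ± 0.11 and -0.25 ± 0.11 in the Meishan steps and by -0.06 ± 0.14 and -0.33 ± 0.14 in Yorkshire, none of which passed. RPLP2 did not pass in any step either. RPLP1 did not pass in Meishan (-0.02 ± 0.14) and fell in Yorkshire by GD26 as deposited (-0.51 ± 0.14, limma adjusted p = 0.0111), with -0.12 ± 0.15 centred. RPSA, also known as the laminin receptor precursor, was 0.27 ± 0.14 and -0.14 ± 0.17 by GD26 in Meishan and Yorkshire and -0.37 ± 0.14 and -0.38 ± 0.17 from GD26 to GD50, none past the test (adjusted p = 0.0875 and 0.158 in the second step).

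RPL5 and RPL11, which carry the 5S ribosomal RNA and can bind MDM2, are given by their own values. RPL5 fell in Yorkshire by 0.58 ± 0.14 by GD26 as deposited (limma adjusted p = 0.00594; centred -0.18). RPL11 was -0.24 ± 0.16 (adjusted p = 0.213). In Meishan they read -0.23 ± 0.11 and -0.26 ± 0.14 without passing. RPS19, the gene most often mutated in Diamond-Blackfan anaemia, fell in Yorkshire by 0.47 ± 0.14 as deposited and was -0.08 ± 0.16 centred. RPS27A, made as a fusion with ubiquitin, fell there by 0.50 ± 0.16 as deposited and was -0.11 ± 0.20 centred. The 4 probe sets with the smallest range of group means were those of RPS2, RPL7, RPL11 and RPL17. RPS2 lay between 13.89 and 14.34 on all 18 arrays.

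Of the paralogs beside their parents, RPL22 fell in Meishan by 0.50 ± 0.14 by GD26, when RPL22L1 was at 0.38 ± 0.16. In the next step RPL22 was at -0.01 ± 0.14 and RPL22L1 fell. RPL7 was -0.28 ± 0.13 in Meishan and -0.14 ± 0.14 in Yorkshire by GD26, and RPL7L1 0.30 ± 0.19 and -0.27 ± 0.18, none past the test. The parents RPL26 and RPL36A had no probe set in these tests. Paralogs and processed copies of these genes share sequence, so probes may read more than 1 of them.

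Genes with more than 1 probe set did not always agree. Of the 81 probe sets, 20 were further ones of 18 genes, and 12 of these are described first. RPL23 Ssc.10295.1.A1_at read 9.32, 9.44 and 9.62 on Meishan GD15, 9.47, 9.46 and 9.63 on GD26 and 9.42, 9.60 and 9.09 on GD50. On Yorkshire GD26 it read 7.97, 7.43 and 6.72 and on GD50 6.50, 7.41 and 7.35, and the lowest GD15 array was at 7.67. Every Yorkshire array was under every Meishan array. The difference was -1.61 ± 0.28, -2.14 ± 0.28 and -2.28 ± 0.28 on GD15, GD26 and GD50 as deposited, and -1.61, -1.79 and -1.87 centred (limma adjusted p from 9.45e-06 to 0.00108 over both scales). It was the one member that differed between the breeds on GD15, and the brightest RPL23 probe set differed by 0.03 ± 0.14 on that day.

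RPS27A Ssc.26820.1.A1_at had a similar pattern on the later days. In Meishan its 9 arrays lay between 8.20 and 8.67, in Yorkshire at 7.89-8.03 on GD15, 5.88-7.83 on GD26 and from 6.45 on GD50. Yorkshire was lower by 1.67 ± 0.33 on GD26 and 1.74 ± 0.33 on GD50 as deposited, and by 1.32 and 1.33 centred, where it passed as well. The second RPS27 probe set was lower in Yorkshire on GD26 on both scales, by 1.67 ± 0.35 as deposited, and its lowest array was Yorkshire GD26 replicate 3 at 5.89. Ssc.11132.1.S1_a_at of RPS18 fell in Yorkshire from 14.28-14.54 on GD15 to 13.14-13.47 on GD26 and 12.36-12.86 on GD50, by 1.14 ± 0.19 in the first step (limma adjusted p = 5.55e-04; centred -0.74, adjusted p = 0.00765). In Meishan that first step was -0.23 ± 0.14. The dim RPS25 probe set read 6.40-6.81 on Yorkshire GD15 and 5.05-5.68 on GD26. All these GD26 values were under 100, which bounds the difference at only 1.01-fold. As in Meishan, it is counted among the falls but is a description without a test.

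**Figure D4:**
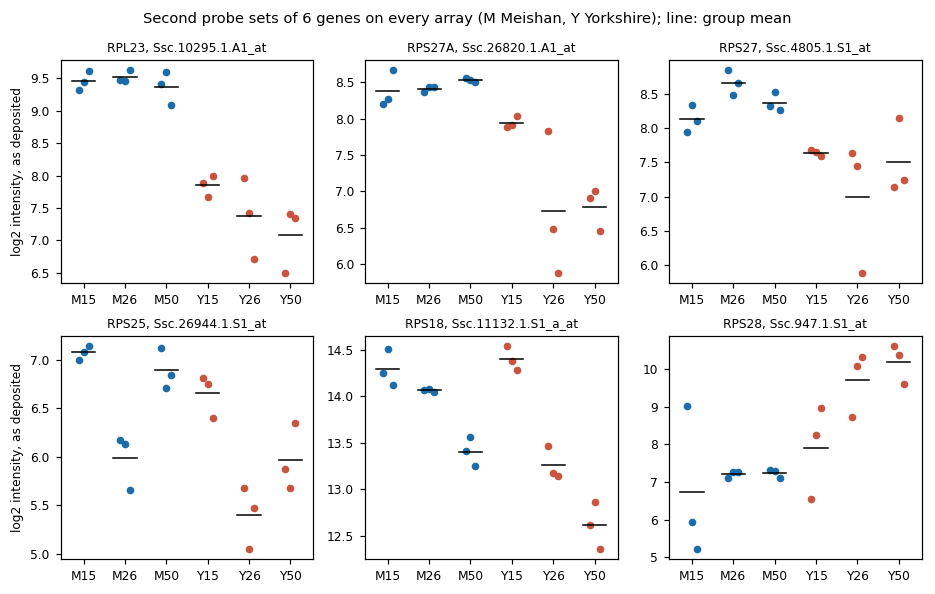
Log2 intensity as deposited (y axes, each cut to its own range) of second probe sets of 6 genes on every array by breed and day (x axis, M Meishan in blue, Y Yorkshire in red), with group means as black lines. All 9 Yorkshire arrays of RPL23 Ssc.10295.1.A1_at lie under all 9 Meishan arrays (9.09 to 9.63), and RPS28 Ssc.947.1.S1_at is raised on Yorkshire GD26 and GD50.

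Another 8 genes (RPL6, RPL12, RPL13A, RPL17, RPL23, RPL24, RPL32 and RPS6) had a bright probe set and a dim one whose names share the cluster number but hold the other strand letter, A or S. These pairs were picked after their values were seen. The dim ones account for 8 of the 9 rises counted in Yorkshire by GD26, of which those of RPL6 and RPL13A were fixed by the filter as given below, with changes of 1.26 to 3.47 and a median of 2.91, while their bright partners changed by -0.96 to 0.10 with a median of -0.54. Counted without the 8, 44 members fell and 1 rose as deposited. That last riser, Ssc.947.1.S1_at of RPS28 (1.79 ± 0.62), read 9.03, 5.95 and 5.22 on Meishan GD15, much like the dim ones.

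RPL6 Ssc.1062.1.S1_at read 5.06, 6.34 and 6.50 on Yorkshire GD15, 8.70, 9.82 and 9.79 on GD26 and 10.14, 10.55 and 10.11 on GD50. All GD15 values were under an intensity of 100, so the GD26 level was at least 6.93-fold higher, while the bright RPL6 probe set was -0.31 ± 0.14. This probe set was above 100 on 7 arrays, 1 of them outside Yorkshire GD26 and GD50, and that of RPL13A on 8, 2 of them outside. Both passed the filter only through the groups where they were high, so their differences are a description without a test. RPL23 Ssc.806.1.A1_at read 6.54, 8.43 and 9.08 on Yorkshire GD15 and 10.26, 11.60 and 11.59 on GD26, a rise of 3.14 ± 0.61, while the bright one fell. That of RPL17 rose by 3.07 ± 0.55, and the difference for RPL13A was 3.33 ± 1.01. In 5 of these 8 genes the calls of the pair were opposite as deposited (RPL13A, RPL17, RPL23, RPL24 and RPL32), and RPS28 was another such gene. Centred, the calls were opposite for RPL23 alone.

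The dim probe sets were brightest on the 6 arrays with the brightest controls. Their mean was 8.85, 10.25 and 10.32 on Yorkshire GD26 and 10.28, 10.86 and 10.19 on GD50, where the hybridization controls were at 11.45, 12.81, 12.91, 12.49, 13.50 and 12.77. It was 8.11 on Meishan GD15 replicate 1 with controls at 10.92, and 5.86 and 5.70 on the 2 other arrays of that group with controls at 10.00 and 9.68. On Yorkshire GD15 it was 5.99, 7.56 and 8.03 with controls at 10.10, 10.27 and 10.86. On Meishan GD26 it was between 6.95 and 7.22 with controls at 10.29, 10.61 and 10.87, and on Meishan GD50 7.23, 7.14 and 7.06 with controls at 10.96, 10.85 and 11.14. Within Meishan GD15, Yorkshire GD15 and Meishan GD26 the mean of the dim probe sets had the same order as the controls. Within Meishan GD50, and over all these 12 other arrays together, the orders were not the same. The relation between them was not tested. For 7 of the 8, every Yorkshire GD26 and GD50 array was above every other array, and for RPL13A the lowest, 6.99 on Yorkshire GD26 replicate 1, was not. Among the 427 pairs of this kind on the array, 4 other pairs had a bright probe set at least as bright as the dimmest bright one of the 8 (TMSB10, TXN, ZC3H10 and 1 without a symbol), and their dim ones changed by 2.24 to 3.40 between Yorkshire GD15 and GD26. Which transcript or strand the dim probe sets read was not tested, and no statement on antisense RNA is made from them.

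**Figure D5:**
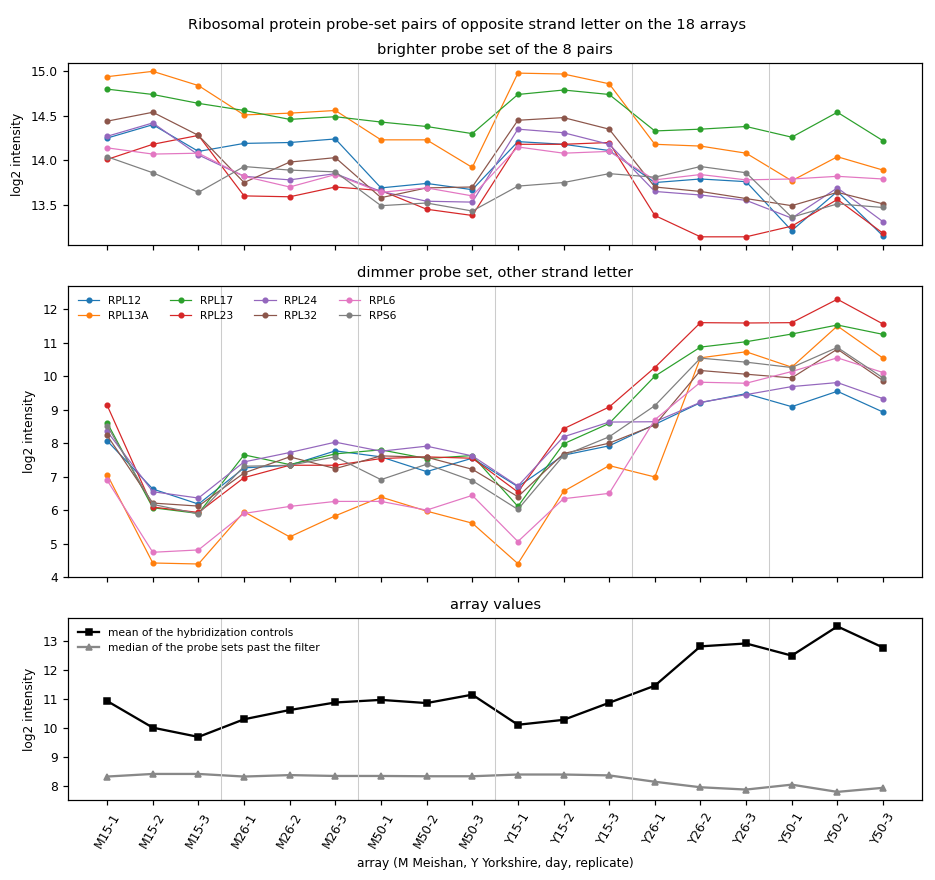
Log2 intensity (y axes) on each of the 18 arrays (x axis) of the brighter (top) and dimmer (middle) probe sets of the 8 pairs with opposite strand letters, and the mean of the hybridization controls with the array median (bottom). The dimmer ones are raised on Yorkshire GD26 and GD50, on Meishan GD15 replicate 1 and on Yorkshire GD15 replicates 2 and 3, while the array median falls from 8.31-8.40 to 7.78-8.13 on the Yorkshire GD26 and GD50 arrays.

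Other genes of the translation machinery were counted beside the members. FAU, which encodes RPS30 as a fusion, was at -0.27 and -0.40 in the Meishan steps without passing, and fell by 0.77 in Yorkshire by GD26 as deposited (limma adjusted p = 0.00219; centred -0.38, adjusted p = 0.128). RACK1, a scaffold on the 40S head, passed in no step as deposited, and centred it rose by 0.50 in Yorkshire by GD26 (adjusted p = 0.0306). Of 55 mitochondrial ribosomal protein genes, 13 rose and 4 fell in Meishan by GD26, with a median of 0.09, where 23.8% of all probe sets rose and 27.1% fell. In Yorkshire 2 rose and 25 fell as deposited, against 20.3% and 44.9% of all, and 2 and 14 centred, against 29.0% and 30.7%.

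The same shares of all probe sets are the background for the lists that follow. Of 37 genes of ribosome assembly, 10 rose and 5 fell in Meishan by GD26, and 2 and 20 in Yorkshire (6 and 8 centred). Initiation factors gave 8 higher and 6 lower of 32 in Meishan, and 4 and 11 in Yorkshire (11 and 4 centred). Of 6 genes listed as elongation factors by their symbols alone, 1 rose and 1 fell by GD26 in each breed as deposited. Centred, 1 rose in Meishan and 3 in Yorkshire with no fall. In the second step 1 fell in Meishan (2 centred), where 10.2% of all probe sets fell (10.0% centred). None passed in Yorkshire, where 7.85% of all fell (8.02% centred). EEF1E1 rose by 0.82 in Meishan by GD26 (adjusted p = 0.002) and EEF1D fell by 0.51 in Yorkshire as deposited (adjusted p = 0.00985; centred -0.12). EEF1G fell in Meishan in both steps as deposited, by 0.39 and 0.54, and EIF5A rose in Yorkshire by GD26 by 1.67 (2.06 centred). Of 15 other genes whose mRNAs start with pyrimidines, 3 rose and 4 fell in Meishan by GD26 (3 and 3 centred). In Yorkshire 1 rose and 6 fell as deposited, and 5 rose and 2 fell centred. NACA and BTF3, which form the nascent chain complex at the tunnel exit, fell by 0.59 and 0.50 in Meishan and by 1.06 and 0.96 in Yorkshire, where centring left 0.67 and 0.57 and both still passed. NAP1L1, a histone chaperone, rose in both breeds, by 0.95 and 1.01. Of 4 measured genes upstream of translation, 1 rose and 2 fell in Meishan by GD26 (1 and 1 centred). In Yorkshire 1 rose and 1 fell (2 and 1 centred). EIF4EBP2, a repressor of cap-dependent initiation, fell by 0.76 in Meishan and by 1.23 in Yorkshire (0.84 centred) by GD26. From GD26 to GD50 only RHEB, the activator of mTOR, passed as deposited. It rose by 0.69 in Meishan and 0.70 in Yorkshire, where 8.20% and 5.72% of all probe sets rose.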

How the data were processed

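Endometrial RNA of 6 groups (2 breeds, 3 days, 3 pools each) was hybridized to the Affymetrix porcine array. According to the authors' methods the deposited log2 intensities are GCRMA values, made from the scanner files with Bioconductor packages. The submitters' processing notes also name RMA, and no version or genome build is given in the sources used here. Scanner files were not used here, so this step was kept as it is.

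Tests used limma 3.58.1 (R 4.3.3; lmFit, then eBayes). They ran on 9320 probe sets, those above 100 on 6 or more of the 18 arrays less 79 controls, with the filter before the fit as in the study's methods. There was 1 fit per breed for the steps between days and 1 fit over the 6 groups for the differences between breeds. The eBayes prior had 3.67, 3.44 and 3.81 degrees of freedom. Each fit was repeated on median-centred values. The contrast of GD26 with GD15 within each breed was also run on simulated data. The fit over the 6 groups and the centred fits were not. Gene symbols came from the platform annotation: 10099 probe sets had 1 symbol, 198 several and 13826 none, and 8 probe sets with several symbols of which 1 is a ribosomal protein were not members. A gene was represented by its brightest probe set over the 18 arrays.

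The members and lists were chosen with earlier results of these data known. Named were the 4 members with the largest rise and fall past the test in each step between days, the 6 largest breed differences, the 4 smallest ranges of group means, RPSA, RPLP0, RPLP1, RPLP2, RPS6, RPS27A, RPL5, RPL11 and RPS19, every paralog, and probe sets of 1 gene called in opposite directions. RPS3 belongs to that rule and had no measured member. Other genes are named to complete a count. Where all arrays of the dimmer group were under 100, the fold is a bound with 100 in its place. The alternatives were other filters, scalings, variance models, a stricter adjustment, single arrays left out and a replicate block, and, chosen after seeing the data, Yorkshire GD26 from array 1 alone and the members without the strand partners. Whether equal replicate numbers pair the pools was checked by the correlation of deviations from the group means. Every pair was over 0.1 for Meishan GD50 and GD26 alone (0.18, 0.13 and 0.33), and a replicate block left those counts at 9 fallen and 1 risen. No sequence is printed. Plots came from matplotlib 3.10.9 (Python 3.11.15).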

Additional observations from a re-analysis of the deposited data

Results flagged for a closer look

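In 14 members the change from GD15 to GD26 differed between the breeds by the interaction contrast of limma as deposited (Yorkshire change minus Meishan change, log2). The values were -1.24 for RPS27A Ssc.26820.1.A1_at, -0.91 for RPS18 Ssc.11132.1.S1_a_at, -0.68 for RPL26L1, -0.67 for RPS19BP1, -0.62 for RPL10A, -0.59 for RPS23, -0.54 for RPS27L, -0.53 for RPL35, -0.52 for RPS26, -0.49 for RPLP1 and -0.42 for RPL19. They were 2.37, 2.86 and 2.97 for the dim strand partners of RPL17, RPL6 and RPL23. That of RPL6 passed the filter only through the Yorkshire GD26 and GD50 arrays, so its value is a description. After median centring the 11 lower ones no longer passed, and the 3 partners did, at 2.73, 3.21 and 3.32. All rest on the Yorkshire GD26 arrays, whose medians were low and whose hybridization controls were bright, and the part of this in the differences was not tested.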

How the results depend on the processing

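Counts below are member probe sets past limma's test (fallen or lower unless called risen or higher) and medians are log2 changes. Fitting before the filter gave 39 and 24 fallen in the Meishan steps, 13 in the second Yorkshire step, 20 lower for the breed difference by GD26, 1 higher for that from GD26 to GD50, and 1 higher and 2 lower on GD15. Without a filter 34 fell in Meishan by GD26 and 8 in the second Yorkshire step, and 1 was higher in each breed difference and on GD15. An intensity above 200 gave 0 risen in the second Meishan step and 1 higher for the second breed difference. With other samples in the fit 0 rose in Meishan by GD26, 14 fell in its second step and 8 in that of Yorkshire, 1 was higher for the first breed difference, and 11 were lower on GD26 and 11 on GD50. A mean-variance trend gave 2 risen and 37 fallen, then 23 fallen in Meishan, 16 fallen in the second Yorkshire step, 5 higher and 20 lower for the first breed difference, 1 higher for the second and 2 lower on GD15. A floor of 50 gave 14 fallen in the second Meishan step, 5 higher for the first breed difference and 1 for the second. With Bonferroni adjustment 0 passed in any step or breed difference or on GD15, and 1 higher and 1 lower remained as counts on GD26 and on GD50.

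Median centring gave 6 fallen (median -0.08) in Yorkshire by GD26 and 0 in its second step, 5 higher and 0 lower (0.12) for the first breed difference, 19 higher and 4 lower (0.13) on GD26 and 32 and 3 (0.32) on GD50. Quantile normalization gave 5 and 1 fallen in the second Meishan and Yorkshire steps, 6 higher and 5 lower for the first breed difference, 1 higher for the second and 10 lower on GD50. Cyclic loess gave 3 (-0.05) and 1 fallen in those second steps, 29 (-0.32) in Yorkshire by GD26, 2 lower for the first breed difference, 11 (-0.06) on GD26 and 8 on GD50. The share of called members that were lower went from 83.0% as deposited to 35.3% centred in Yorkshire by GD26, and from 73.0% to 17.4% between the breeds on GD26. Over all probe sets it went from 68.9% to 51.4% and from 79.8% to 53.8%, and on GD50 from 80.8% to 51.9%.

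Taking Yorkshire GD26 from array 1 alone, a lone sample assumed to vary like the other groups, gave 2 risen and 18 fallen by GD26, 0 and 1 in the second step, 0 higher and 1 lower for the first breed difference, 1 lower for the second, and 3 higher and 7 lower on GD26. Without the strand partners 1 rose in Yorkshire by GD26, 0 were higher for the first breed difference, 2 on GD26 and 4 on GD50. These settings were chosen after seeing the data. The causes of these moves were not tested.

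Leaving out single arrays gave, in Meishan by GD26, 0 to 10 risen and 11 to 28 fallen with medians of -0.26 to -0.18, and in its second step 1 risen, 1 to 18 fallen and -0.23 to -0.16. In Yorkshire it gave 6 to 9 risen, 28 to 48 fallen and -0.48 to -0.43 by GD26, and 0 to 1 risen, 0 to 3 fallen and -0.19 to -0.02 in the second step, with none risen without Yorkshire GD26 replicate 2 and none fallen without any 1 of the Yorkshire arrays other than GD50 replicate 2. The breed differences gave 1 to 6 higher, 2 to 12 lower and -0.25 to -0.20, then 0 to 1 higher, 0 to 1 lower and 0.02 to 0.17. Between the breeds it gave 0 to 2 higher, 1 lower and 0.01 to 0.06 on GD15, 8 to 11 higher, 16 to 29 lower and -0.26 to -0.19 on GD26, fewest lower without Yorkshire GD26 replicate 3, and 11 to 12 higher, 10 to 22 lower and -0.13 to -0.07 on GD50, fewest lower without Yorkshire GD50 replicate 1.

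With the replicate block 16 fell in place of 21 in Meishan by GD26, 40 in place of 44 in Yorkshire, and 0 in place of 2 in its second step, where the numbers were not shown to pair the pools (correlations of 0.12, 0.15 and -0.03). No named call turned its sign under any of these settings.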

Other observations

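The array also holds control probe sets for ribosomal RNA, which were outside the tests and are given as log2 mean ± SD (n = 3). The control AFFX-Ss_18SrRNA_at read 11.96 ± 0.76, 13.03 ± 0.04 and 13.31 ± 0.36 on Meishan GD15, GD26 and GD50, and 12.40 ± 0.73, 10.11 ± 1.37 and 11.29 ± 0.69 in Yorkshire. A second 18S control, AFFX-SSC-18SrRNA_at, was at 8.51 ± 0.47, 7.09 ± 0.55 and 7.89 ± 0.54 in Meishan and 8.88 ± 0.65, 10.55 ± 0.23 and 11.13 ± 0.25 in Yorkshire. The 28S control AFFX-SSC-28SrRNA_at was at 12.12 ± 1.32, 13.55 ± 0.28 and 13.73 ± 0.89 in Meishan and 12.97 ± 0.74, 13.57 ± 0.92 and 14.23 ± 0.37 in Yorkshire. The 5S control was at 3.16 ± 0.36, 3.13 ± 0.64 and 6.24 ± 0.30 in Meishan and 4.69 ± 0.72, 7.65 ± 1.25 and 9.47 ± 0.74 in Yorkshire.

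Of 8 commonly used reference genes past the filter, 5 rose and none fell in Meishan by GD26 as deposited, with a median log2 change of 0.58. Of all probe sets 23.8% rose and 27.1% fell. In Yorkshire 4 rose and 2 fell as deposited, against 20.3% and 44.9% of all. YWHAZ rose by 1.03 in Meishan and 1.67 in Yorkshire and TUBB by 0.63 and 1.84, while SDHA was at 0.03 and -0.09.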
